A study of Mus musculus with 4 samples.

Results

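The nuclear genes of the oxidative phosphorylation machinery were described in 3 mouse leukemias and in normal bone marrow. Members were chosen by symbol and not by signal: probe sets annotated to a single gene whose name begins with Ndufa, Ndufb, Ndufc, Ndufs, Ndufv, Uqcr, Cox4, Cox5, Cox6, Cox7, Cox8 or Atp5, together with Sdha, Sdhb, Sdhc and Sdhd, without assembly factors and pseudogenes. This gave 169 of 34945 single-gene probe sets and 82 of 18193 genes. Complex I contributed 34 genes, complex II 4, complex III 8, complex IV 18 and complex V 17. Ndufa4 was counted with complex IV, where its protein resides. The remaining gene, Cox7a2l, encodes a factor that joins complexes into supercomplexes and is not a subunit in the strict sense. Ndufs6, Ndufa11 and Cox7b were not analysed here.

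Oxidative phosphorylation is the final stage of respiration in the inner mitochondrial membrane. Complex I and complex II pass electrons from NADH and succinate to coenzyme Q, complex III passes them to cytochrome c, and complex IV passes them to oxygen. Complexes I, III and IV pump protons, and complex V, the ATP synthase, uses the returning protons to make ATP. Most subunits are encoded in the nucleus, while a small core of complexes I, III, IV and V is encoded in mitochondrial DNA. Several complex IV subunits have a ubiquitous form and a second form that is known mainly from muscle, lung or testis.

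The samples came from C57BL6 mice, with 1 array for each of 4 groups. The mixed lineage leukemia arose from hematopoietic stem or precursor cells that had been transduced with both AF4-MLL and MLL-AF4, the reciprocal products of a translocation known from infant leukemia. The leukemias typed as proB ALL (acute lymphoblastic leukemia) and as B/T BAL (biphenotypic acute leukemia) each arose from cells transduced with AF4-MLL alone. The control was normal bone marrow, and per the labels the leukemic cells were taken from the marrow of moribund mice some months later, typed by FACS and left unsorted. No group has a replicate, so no signal carries a replicate error, and p-values from limma measure the spread between leukemias of different type. In unsorted marrow fewer cells of a type and less RNA per cell cannot be told apart.

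Values are MAS5 signals on a linear scale that was common to the arrays, with a trimmed mean of 1000 on each. Differences are on the scale log2(signal + 51.4), always leukemia minus normal marrow unless stated, and 189, the median of all signals, was taken as a floor below which a signal was treated as dim. The bright end was not equal between arrays: the 99th percentile of signals was 29206 in the mixed lineage, 22321 in the proB ALL and 29968 in the B/T BAL sample, against 23392 in normal marrow. Subunit transcripts lie there, with a median percentile rank of 95.2, 95.9 and 97.2 on the mixed lineage, proB ALL and B/T BAL arrays and of 95.2 on the normal array. Quantile normalisation, which makes the signal distributions identical, is therefore given beside the medians of differences from normal marrow. Erythroid precursor markers, 8 of 11 measured, summed to 10229, 15800 and 17968 in the mixed lineage, proB ALL and B/T BAL samples, against 190385 in normal marrow. The array labelled proB ALL had 7 of 10 measured early B-cell markers at or below the floor, among them Vpreb1, Igll1 and Ebf1 at 30.1, 64.6 and 128, while Cd79b, Blnk and Cd79a were above it at 2484, 441 and 426. Mixed lineage leukemia likewise had 7 of 10 at or below the floor, B/T BAL had 4 and normal marrow had 2. The proB ALL array also had 9 of 9 measured NK and cytotoxic cell markers above it, among them Gzmb at 26953. Normal marrow had 1 of these 9 at or below the floor, and their signals summed to 11839 there against 175861 in proB ALL. Mixed lineage leukemia and B/T BAL each had 5 of 9 at or below it, with sums of 10264 and 53664. Gzma made up most of the B/T BAL sum, at 52157, and was 54327 in proB ALL. T-cell markers, 9 of 11 measured, summed to 167347 in B/T BAL, 49253 in proB ALL and 2454 in mixed lineage leukemia. Their sum in normal marrow was 4029. Thy1 at 28959 and Cd3d at 12582 made up most of the proB ALL sum. At or below the floor were 4 of these 9 markers in proB ALL, 4 in mixed lineage leukemia, 2 in normal marrow and 0 in B/T BAL. Cd3e, Cd8a, Ptcra and Bcl11b had 32.3, 135, 114 and 231 in proB ALL, against 372, 307, 123 and 340 in normal marrow. The other measured T-cell markers were higher in proB ALL than in normal marrow. Neutrophil markers, 11 of 11 measured, summed to 765226, 134218 and 423527 on the mixed lineage, proB ALL and B/T BAL arrays. Their sum on the normal array was 473246. Monocyte and macrophage markers, 10 of 11 measured, gave 125979, 33034 and 22905 in the same order, against 68688 in normal marrow. Stroma and endothelium markers, 7 of 7 measured, gave 8112, 3301 and 46030, against 8819 in normal marrow. Col1a2 made up most of the B/T BAL sum, at 38648. The part of these cell mixtures in the values below was not tested.

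As a group the subunit genes differed little from normal marrow in mixed lineage leukemia and proB ALL, while in B/T BAL nearly all of them lay somewhat above it. Of the 82 genes, 76 were above the floor on all 4 arrays and 81 on at least 1. Cox7b2, a testis form of a complex IV subunit, was below the floor throughout. The median log2 difference over the 81 genes tested was 0.11 in the mixed lineage, 0.01 in the proB ALL and 0.60 in the B/T BAL sample, against 0.08, -0.11 and 0.05 for all 14012 genes tested. After quantile normalisation the subunit medians were -0.13, 0.02 and 0.36, so the sign in mixed lineage leukemia turned and the B/T BAL value stayed positive. Above normal marrow lay 46, 42 and 75 of the 81 genes in the mixed lineage, proB ALL and B/T BAL samples, which is 56.8%, 51.9% and 92.6% of them, against 53.1%, 44.3% and 52.1% of all genes tested. With quantile normalisation the B/T BAL count was 65 of 80 genes, or 81.2%, against 50.3% of all genes.

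Differences of at least 2-fold were less common among the subunits than among all genes. The share of subunits higher in B/T BAL came closest to that of all genes. At least 2-fold higher than normal marrow were 8 subunit genes in the mixed lineage, 1 in the proB ALL and 10 in the B/T BAL sample, while 18.8%, 11.3% and 15.4% of all genes tested passed the same limit. At least 2-fold lower were 2, 3 and 2 subunit genes, against 15.2%, 18.7% and 17.7% of all genes. Only part of the higher ones had signals above the floor on all 4 arrays, namely 4 of the mixed lineage and 8 of the B/T BAL ones. On all 3 arrays 61 of 81 subunit genes, or 75.3%, stayed within 2-fold of normal marrow, against 38.3% of all genes. Subunit differences also spread less, with a standard deviation over genes of 0.70, 0.72 and 0.52 in the mixed lineage, proB ALL and B/T BAL samples, against 1.19, 1.23 and 1.29 over all genes. Most genes tested were dimmer than the subunits, as the percentile ranks above show. Neither the share within 2-fold nor the spread was compared with genes of like brightness. All 3 leukemias lay above normal marrow for 26 subunit genes and below it for 4, against 19.1% and 19.2% of all genes. At least 2-fold higher in all 3 leukemias were 0 subunit genes and 1.31% of all genes, and at least 2-fold lower were 2 subunit genes, Cox6a2 and Cox6b2, and 4.45% of all genes.

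In limma's test of the 3 leukemias against normal marrow, adjusted over all 14012 genes, 0 of 81 subunit genes had an adjusted p under 0.05, as did 0% of all genes. At an unadjusted p under 0.05 there were again 0 of 81 subunit genes, against 2.95% of all genes, and the smallest subunit p was 0.0574, for Cox6b2. The lone normal array enters this test with the spread of the leukemias, on 2 residual degrees of freedom. The array on which each subunit had its highest signal was B/T BAL for 56 genes, mixed lineage leukemia for 16, proB ALL for 5 and normal marrow for 4. Over all genes tested these shares were 28.1%, 34.7%, 18.0% and 19.2%. After quantile normalisation B/T BAL held 43 of 80.

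**Figure D1:**
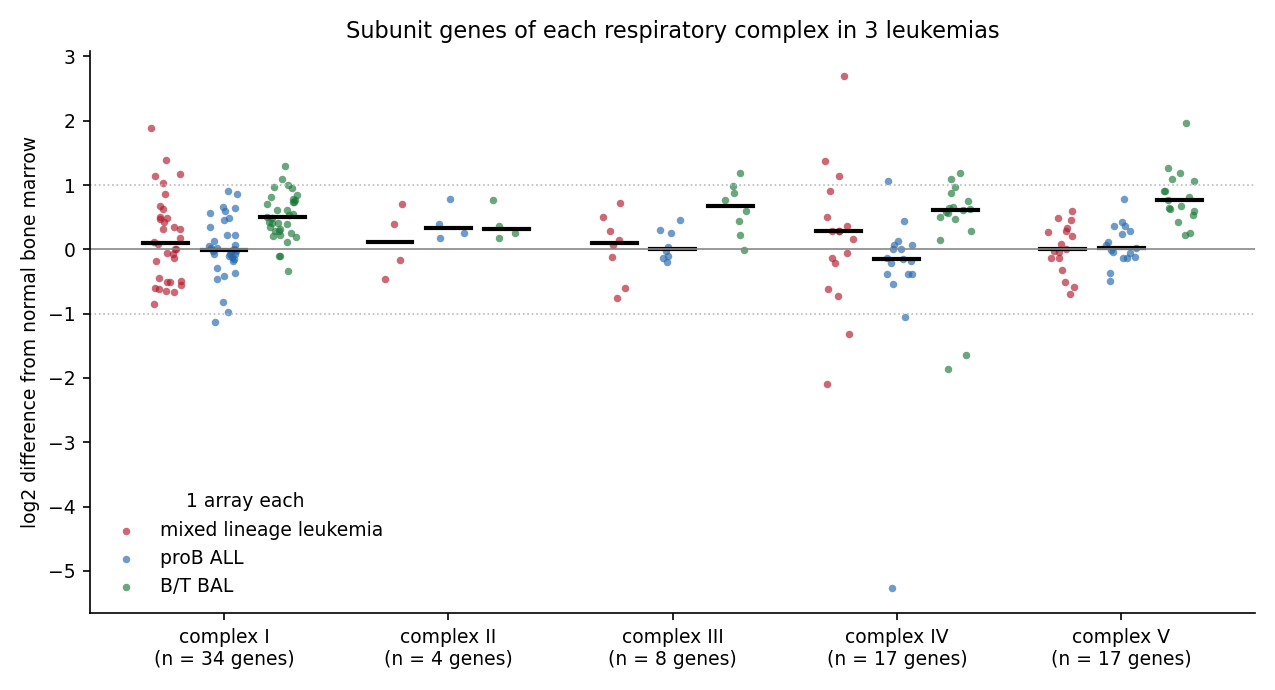
Log2 difference from normal bone marrow (vertical axis) of each tested subunit gene in mixed lineage leukemia (red), proB ALL (blue) and B/T BAL (green), by respiratory complex. Each point is 1 gene on 1 array, black bars are medians, and dotted lines mark 2-fold. All 17 complex V genes lie above 0 in B/T BAL, and the lowest points belong to the tissue forms Cox6b2 and Cox6a2 of complex IV.

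Complex I takes electrons from NADH, and its 34 measured genes had median log2 differences of 0.09 in the mixed lineage, -0.01 in the proB ALL and 0.50 in the B/T BAL sample, with -0.04, 0.01 and 0.39 after quantile normalisation. In mixed lineage leukemia its core and its accessory subunits lay on different sides. The 6 core subunits analysed, which belong to the conserved catalytic part, had a median of -0.50, and 0 of 6 were above normal marrow. The 28 accessory subunits, which surround this core, had a median of 0.32, and 19 of 28 were above normal marrow. After quantile normalisation the core median was -0.48 and the accessory median 0.08, with 14 of 28 above. In proB ALL and B/T BAL, 4 of 6 and 6 of 6 core genes lay above normal marrow, beside 13 of 28 and 25 of 28 accessory genes.

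Among the core genes, Ndufv1, which carries the flavin that accepts electrons from NADH, had signals of 6325 in the mixed lineage, 9447 in the proB ALL and 12125 in the B/T BAL sample, against 9962 in normal marrow. Ndufs1, the large iron-sulfur protein of the NADH arm, had 2922, 4674 and 5668, against 4525 in normal marrow. Ndufs3, a protein of the arm that leads to coenzyme Q, had 5782, 9894 and 11308, against 8477 in normal marrow. For these 3 genes the mixed lineage array was the lowest and B/T BAL the highest of the 4. Ndufs7, which holds the last iron-sulfur cluster before coenzyme Q, followed with 7377, 10231 and 15388, against 10087 in normal marrow. Ndufs8, its iron-sulfur neighbour, differed less, with 16417, 19814 and 24068, against 18058 in normal marrow. Ndufv2, the iron-sulfur partner of Ndufv1, was level with the control in mixed lineage leukemia at 14511, with 13307 and 28441 in the proB ALL and B/T BAL samples, against 14516 in normal marrow. The other probe sets of Ndufv2 put mixed lineage leukemia above normal marrow, by 0.40 and 0.53 on the log2 scale, so its place among the lower core genes rests on the brightest probe set.

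The highest complex I genes over the 3 leukemias were accessory proteins. Ndufb11, an X-linked membrane subunit, had signals of 37210 in the mixed lineage, 26588 in the proB ALL and 27372 in the B/T BAL sample, against 14176 in normal marrow. These are log2 differences of 1.39, 0.90 and 0.95, and limma gave 1.08 with a standard error of 0.54 and an adjusted p of 1. All 3 leukemias lay above the control on this probe set, while of its other probe sets one gave 1.09, 0.65 and 0.77 and the other 0.71, 0.38 and -0.02. Ndufa8, a membrane-arm subunit on the intermembrane space side, had 16575, 13348 and 13292, against 7349 in normal marrow. Its log2 differences of 1.17, 0.86 and 0.85 were the most even among the named complex I genes, and limma gave 0.96 with a standard error of 0.57 and an adjusted p of 1. Ndufa6, which anchors an acyl carrier protein to the complex, had 20492, 11784 and 16296, against 9276 in normal marrow. The 250 bases before and 50 after the start of Ndufb11 and Ndufa8 are shown because these genes stood above normal marrow in all 3 leukemias by similar amounts. They are RefSeq windows of build GRCm38.p6, both on the minus strand, at chrX:20617570-20617869 for Ndufb11 and chr2:36049289-36049588 for Ndufa8. Capitals mark matches to the letters searched below. The Ndufa8 window holds an NRF1 match in bases 8 to 1 before the start and an SP match in bases 101 to 95 before it, and the Ndufb11 window holds no match.
Ndufb11: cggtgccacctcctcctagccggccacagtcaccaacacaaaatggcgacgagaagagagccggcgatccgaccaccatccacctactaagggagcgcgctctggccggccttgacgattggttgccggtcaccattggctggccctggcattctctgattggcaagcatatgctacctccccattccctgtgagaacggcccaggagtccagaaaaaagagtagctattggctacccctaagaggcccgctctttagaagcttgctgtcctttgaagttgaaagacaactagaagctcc
Ndufa8: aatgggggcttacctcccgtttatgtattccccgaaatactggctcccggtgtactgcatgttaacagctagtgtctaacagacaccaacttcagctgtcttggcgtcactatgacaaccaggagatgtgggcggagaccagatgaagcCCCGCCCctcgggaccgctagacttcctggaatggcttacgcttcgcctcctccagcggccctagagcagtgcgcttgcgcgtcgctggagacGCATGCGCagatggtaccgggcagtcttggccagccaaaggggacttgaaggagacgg

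The lowest complex I genes were Ndufb9, Ndufs5 and Ndufa5. Ndufs5, an accessory subunit of the intermembrane space side, had 4988 in the mixed lineage, 3220 in the proB ALL and 9334 in the B/T BAL sample, against 7121 in normal marrow. It was the single complex I gene at least 2-fold lower in proB ALL, with a log2 difference of -1.13. Ndufa5, of the arm that reaches into the matrix, had 3002, 4443 and 7887, against 5459 in normal marrow. Ndufb9, a membrane-arm subunit, had 14714, 11916 and 21984, against 23517 in normal marrow on its brightest probe set. Its second bright probe set gave 17480, 13538 and 18239, against 14229 in normal marrow, so the direction of Ndufb9 depends on the probe set. The widest ranges over the leukemias belonged to Ndufb4 and Ndufb6, both membrane-arm subunits. Ndufb6 had 8374, 4978 and 14381, against 8851 in normal marrow, which is lowest on the proB ALL array and highest on that of B/T BAL. Ndufb4 was above the floor on the mixed lineage array alone, with 331, 24.1 and 66.8, against 52.4 in normal marrow, and was at least 1.75-fold higher in mixed lineage leukemia. The plot of each subunit gene by complex shows these genes at the ends of the complex I column.

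**Figure D2:**
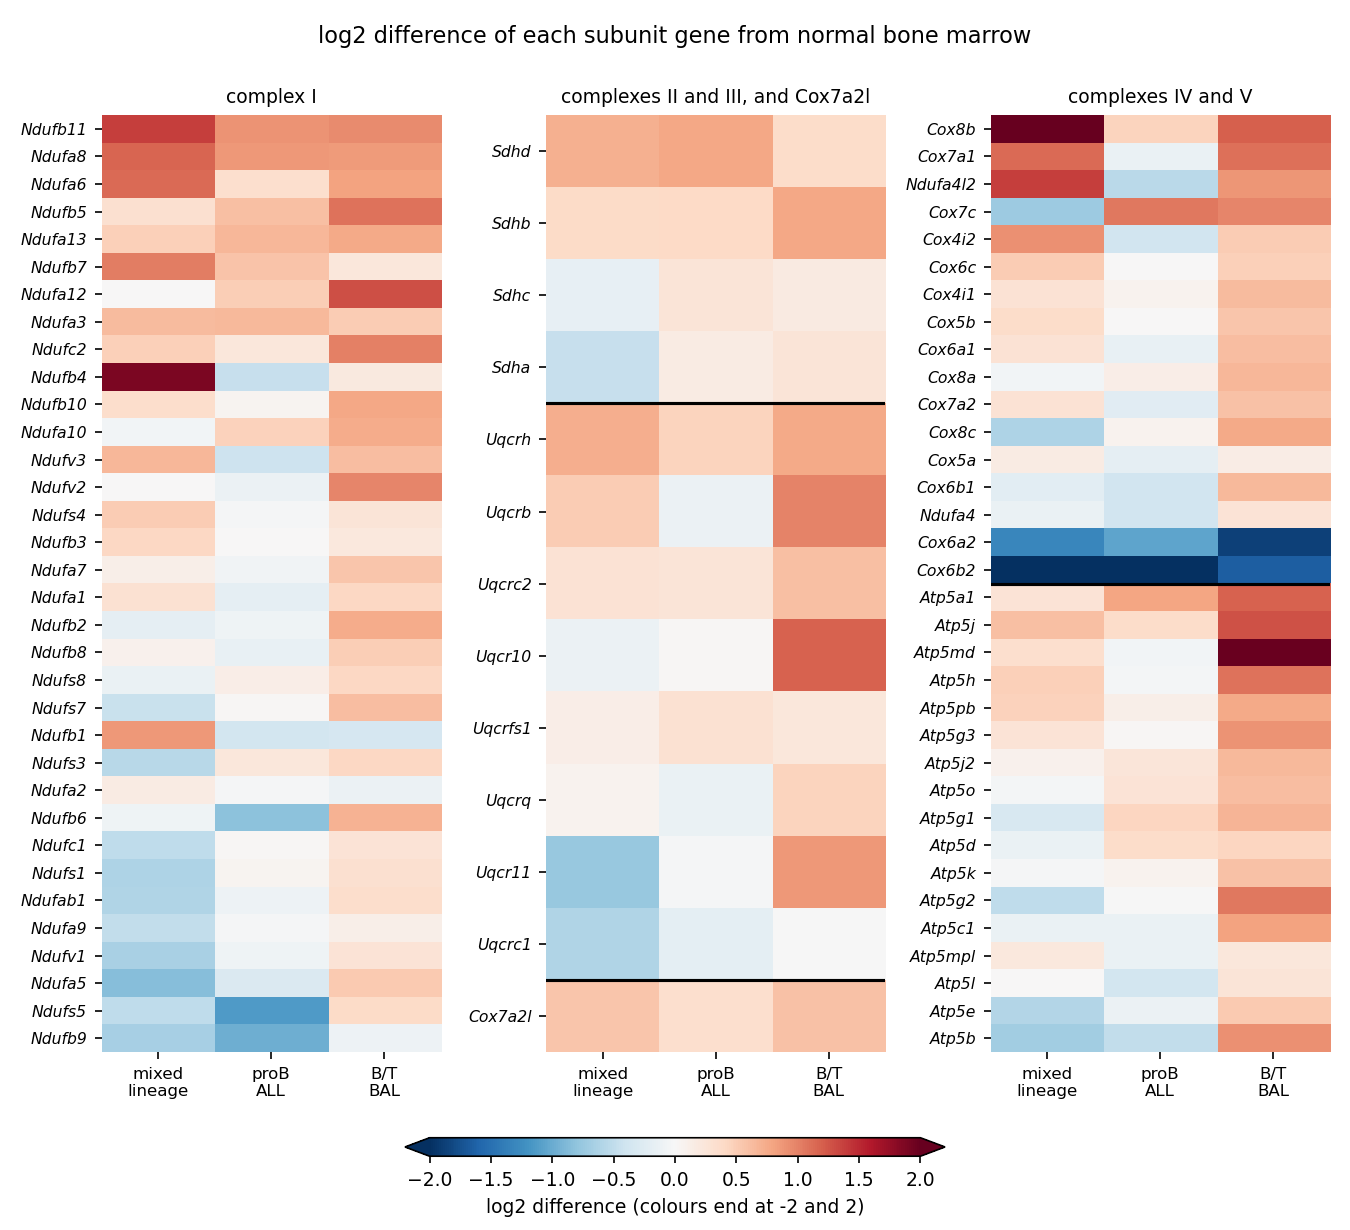
Log2 difference from normal bone marrow of all 81 tested genes (rows, sorted within each complex by the mean over leukemias) on the 3 leukemia arrays (columns), with 1 array per column. Red is higher and blue lower than normal marrow, and colours end at 2 and -2. Most B/T BAL cells are red, while the mixed lineage column holds both colours.

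Complex II oxidises succinate within the citric acid cycle and has all of its 4 subunits encoded in the nucleus. Its medians were 0.11 in the mixed lineage, 0.32 in the proB ALL and 0.31 in the B/T BAL sample, with 0.12, 0.37 and 0.35 after quantile normalisation. Sdha, the flavoprotein that holds the catalytic site, had 6702, 10421 and 11023, against 9229 in normal marrow. Sdhb, the iron-sulfur subunit, had 15768, 15870 and 20650, against 12056 in normal marrow. The membrane anchors were less alike: Sdhc had 3326, 4437 and 4243, against 3730 in normal marrow, and Sdhd had 7082, 7425 and 5581, against 4310 in normal marrow. Sdhb and Sdhd lay above the control in all 3 leukemias, and Sdha and Sdhc lay below it in mixed lineage leukemia. For Sdha a second probe set, with 5453, 8042 and 5203 against 8523 in normal marrow, placed all 3 leukemias below the control.

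Complex III, which hands electrons to cytochrome c, had medians of 0.10 in the mixed lineage, 0.01 in the proB ALL and 0.68 in the B/T BAL sample over 8 genes, with -0.05, -0.01 and 0.41 after quantile normalisation. Uqcrh, the hinge protein beside cytochrome c1, had 31969, 26552 and 32897, against 19420 in normal marrow, and all 3 leukemias were above the control. Uqcrb, a small subunit near the coenzyme Q site, had 67329, 43870 and 93555, against 47203 in normal marrow, highest in B/T BAL. After quantile normalisation its log2 differences were -0.14, -0.17 and -0.05, and normal marrow was highest. Uqcrc1 and Uqcrc2 are the large core proteins of the matrix side. Uqcrc1 had 12142, 16079 and 18334, against 18486 in normal marrow, and Uqcrc2 had 13689, 13295 and 16886, against 11155 in normal marrow. A second Uqcrc2 probe set gave larger log2 differences of 1.12, 1.17 and 2.04. The 2 core proteins thus lay on opposite sides of the control, though the B/T BAL difference of Uqcrc1 was -0.01. The small subunits Uqcr10 and Uqcr11 had the widest ranges. Uqcr10 had 8547, 9536 and 21157, against 9316 in normal marrow. On the brightest probe set of each gene it was the one complex III gene at least 2-fold higher in B/T BAL. Its other probe sets gave smaller B/T BAL log2 differences of 0.27 and 0.30. Uqcr11 had 5509, 9221 and 17089, against 9334 in normal marrow. Uqcrq, a small subunit of the membrane part, and Uqcrfs1, the Rieske iron-sulfur protein, differed by at most 0.44 and 0.30 on the log2 scale in any leukemia.

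Complex IV, cytochrome c oxidase, had medians of 0.29 in the mixed lineage, -0.15 in the proB ALL and 0.61 in the B/T BAL sample over the 17 genes tested. It was the complex most altered by scaling, since quantile normalisation gave -0.27, -0.09 and 0.00. Cox6a1, a ubiquitous form of a small regulatory subunit, had 50552, 37354 and 63475, against 41453 in normal marrow. Cox7a2, another ubiquitous small subunit, had 52594, 37047 and 64416, against 43092 in normal marrow. Cox4i1, the regulatory subunit that binds ATP, had 36405, 31236 and 46238, against 29819 in normal marrow. For these 3 genes B/T BAL was highest and mixed lineage leukemia next, but after quantile normalisation normal marrow was highest for Cox6a1 and Cox7a2, and the B/T BAL difference of Cox4i1 was 0.03. All 10 ubiquitous subunits lay above normal marrow in B/T BAL, and 4 of 10 did after quantile normalisation. Cox7c was the single subunit gene at least 2-fold higher in proB ALL, with 323 in the mixed lineage, 1240 in the proB ALL and 1159 in the B/T BAL sample, against 568 in normal marrow. The other Cox7c probe set was below the floor on 2 arrays and gave log2 differences of -0.91, 0.44 and -0.74. The B/T BAL direction of Cox7c thus depended on the probe set. Both probe sets were far dimmer than those of Cox6a1, Cox7a2 and Cox4i1 above.

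The tissue forms of complex IV held the largest differences among all subunit genes. Cox6b2, known as the testis form of subunit 6B, had a signal of 2333 in the mixed lineage, 214 in the proB ALL and 3187 in the B/T BAL sample, against 10103 in normal marrow. Every leukemia was lower, by 4.33-fold, 47.1-fold and 3.17-fold, and proB ALL stood far below the other leukemias. The limma log2 difference was -3.00 with a standard error of 1.34 and an adjusted p of 1. Without the B/T BAL array limma gave -3.67 with a standard error of 0.93 and an adjusted p of 0.0124, and over 14 alternatives the adjusted p ranged between 0.0124 and 1. Cox6b2 has a single probe set, so no second probe set could be compared. Cox6b1, the ubiquitous form of the same subunit, had 25102, 22275 and 45737, against 29139 in normal marrow, with log2 differences of -0.21, -0.39 and 0.65. The summed erythroid markers were also lower in all 3 leukemias than in normal marrow. So were early B-cell markers, 10 of 11 measured, with sums of 5651, 3725 and 16635 against 34897, and megakaryocyte markers, 5 of 6 measured, with 2542, 1887 and 2215 against 32017. Most of the B/T BAL sum of early B-cell markers was Rag1, at 14988 against 1721 in normal marrow. Rag2 was also higher in B/T BAL, at 201 against 122, while the other measured early B-cell markers were lower. The part of these cells in the level of Cox6b2 was not tested.

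Cox6a2, the heart and skeletal muscle form of subunit 6A, had 471, 571 and 306, against 1240 in normal marrow. It was lower by 2.63-fold, 2.17-fold and 4.06-fold, with a limma log2 difference of -1.40, a standard error of 0.79 and an adjusted p of 1. Its second probe set was dimmer, with 191, 23.0 and 93.4, against 239 in normal marrow, and likewise had all leukemias below the control. Cox6a1 showed no such difference, with log2 values of 0.29, -0.15 and 0.61. Of the remaining tissue forms, Cox8c, a testis form, had 364, 619 and 1024, against 587 in normal marrow. Cox4i2, known from lung, had 320, 100 and 228, against 146 in normal marrow. Cox7a1 and Cox8b, known from heart and muscle, had 316, 101 and 306 against 116, and 374, 37.6 and 98.3 against 14.4 in normal marrow. Ndufa4l2, a hypoxia-induced relative of Ndufa4, had 226, 21.5 and 143, against 54.8 in normal marrow. The last 4 genes were dim in normal marrow, so their folds are bounds: at least 1.70-fold, 1.68-fold, 1.98-fold and 1.20-fold higher in mixed lineage leukemia for Cox4i2, Cox7a1, Cox8b and Ndufa4l2. The mixed lineage array also had more probe sets above the floor, 57.4%, than the proB ALL array with 46.3%, the B/T BAL array with 49.0% or the normal one with 47.2%.

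The windows around the starts of Cox6b2 and Cox6b1 are shown as the 2 forms of a subunit of which one differed in all 3 leukemias. They are RefSeq windows of build GRCm38.p6 on the minus strand, at chr7:4753045-4753344 for Cox6b2 and chr7:30626065-30626364 for Cox6b1. Capitals mark an SP match in bases 193 to 187 before the Cox6b2 start and an ETS match in bases 28 to 22 before the Cox6b1 start.
Cox6b2: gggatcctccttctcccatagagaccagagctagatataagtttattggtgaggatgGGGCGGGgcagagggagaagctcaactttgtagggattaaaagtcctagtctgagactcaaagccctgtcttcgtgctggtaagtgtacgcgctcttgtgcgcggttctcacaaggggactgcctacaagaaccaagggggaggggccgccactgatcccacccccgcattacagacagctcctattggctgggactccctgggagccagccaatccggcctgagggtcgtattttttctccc
Cox6b1: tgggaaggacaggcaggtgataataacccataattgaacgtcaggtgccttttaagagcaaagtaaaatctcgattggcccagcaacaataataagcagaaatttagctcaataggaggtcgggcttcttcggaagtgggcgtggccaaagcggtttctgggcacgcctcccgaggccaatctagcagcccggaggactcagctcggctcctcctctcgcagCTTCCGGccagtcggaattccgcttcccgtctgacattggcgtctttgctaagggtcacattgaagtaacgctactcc

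**Figure D3:**
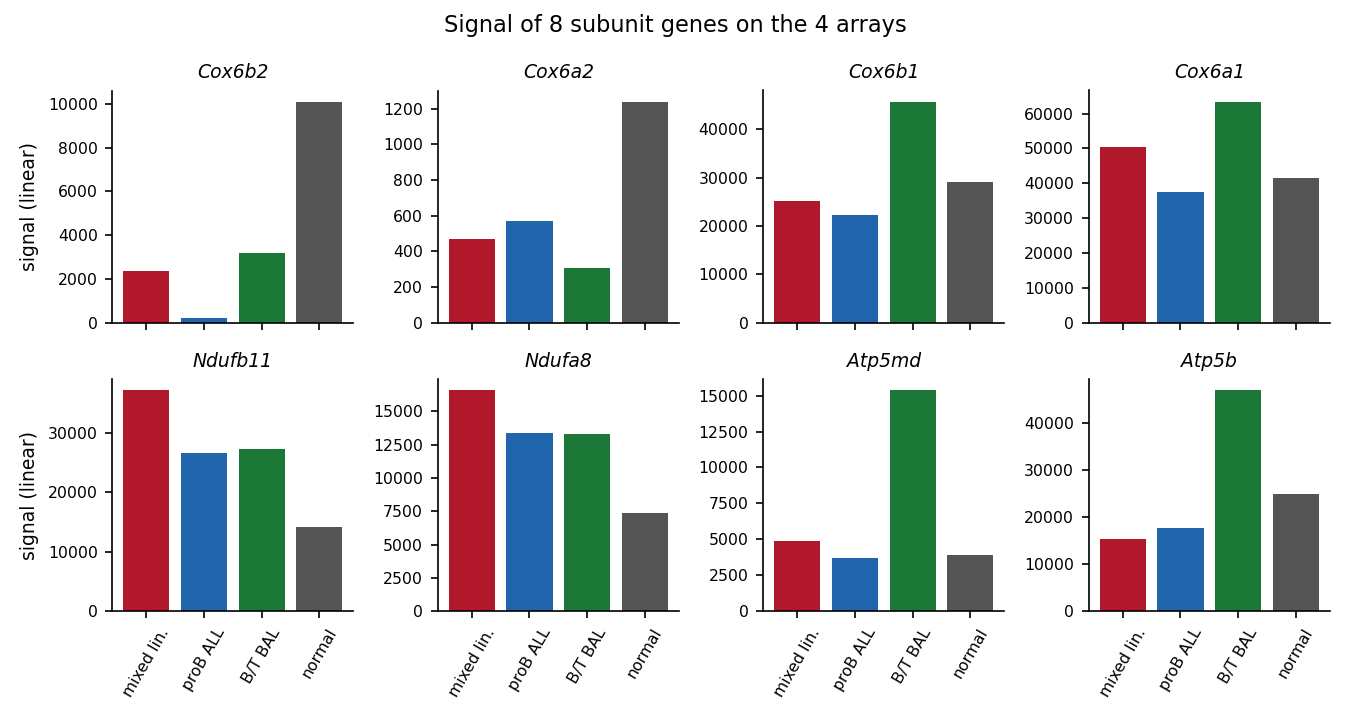
Signal on a linear scale (vertical axes, each from 0) of 8 subunit genes in the mixed lineage sample, proB ALL, B/T BAL and then normal marrow, with 1 bar per array and no error bars because no group had a replicate. Cox6b2 and Cox6a2 are highest in normal marrow, Ndufb11 and Ndufa8 lowest there, and Atp5md and Atp5b are highest in B/T BAL.

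Complex V, the ATP synthase, showed the B/T BAL pattern most fully in the signals as deposited. Its 17 genes had medians of 0.01 in the mixed lineage, 0.02 in the proB ALL and 0.76 in the B/T BAL sample, and all 17 had their highest signal on the B/T BAL array. After quantile normalisation the medians were -0.24, 0.11 and 0.28, with 16 of 17 genes above normal marrow and 13 of 17 highest in B/T BAL. That B/T BAL median was below those of complexes I, II and III, at 0.39, 0.35 and 0.41, and above 0.00 for complex IV. In mixed lineage leukemia 1 of the 5 genes of the F1 part, the catalytic head, was above normal marrow, beside 8 of the 12 genes of the membrane part and the stalk. After quantile normalisation these counts were 1 of 5 and 5 of 12, with medians of -0.49 and -0.16. Atp5a1, the alpha subunit of the head, had 15424, 21990 and 28819, against 12696 in normal marrow. Atp5b, the catalytic beta subunit, had 15425, 17607 and 46957, against 24916 in normal marrow. Alpha and beta form 1 ring, and in mixed lineage leukemia and proB ALL their signals on these probe sets lay on opposite sides of the control. A second probe set of Atp5a1 gave 10873, 17429 and 22564 against 16358, which puts mixed lineage leukemia below the control, as for Atp5b.

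Of the other parts of the head, Atp5c1, the rotating gamma subunit, had 24450, 24464 and 47140, against 26915 in normal marrow. Atp5d, the delta subunit at its foot, had 17946, 25515 and 26669, against 19772 in normal marrow. Atp5e, the small epsilon subunit, had 10921, 15158 and 23798, against 16492 in normal marrow. Mixed lineage leukemia was the lowest array for all 3 of these genes. At least 2-fold higher in B/T BAL on their brightest probe sets were Atp5a1, Atp5j, Atp5md, Atp5h and Atp5g2. Other probe sets above the floor on all 4 arrays gave B/T BAL differences of 0.46 and -0.01 for Atp5a1 and 0.40 for Atp5h. Atp5j, of the peripheral stalk, had 15073, 12840 and 23976, against 9927 in normal marrow. Atp5l, a membrane subunit at the dimer interface, had 18515, 14167 and 21764, against 18339 in normal marrow, and differed by at most 0.37 on the log2 scale. Atp5md, a small protein that helps to hold ATP synthase dimers together, had 4915, 3725 and 15366, against 3894 in normal marrow. Its log2 differences were 0.33, -0.06 and 1.97, so B/T BAL stood 3.95-fold above normal marrow and the other arrays lay together. The window around its start is shown because it had the highest B/T BAL difference of any subunit gene. It is a RefSeq window of build GRCm38.p6, chr19:47090598-47090897 on the minus strand, with capitals at an SP match in bases 80 to 74 before the start and an ETS match in bases 3 to 9 after it.
Atp5md: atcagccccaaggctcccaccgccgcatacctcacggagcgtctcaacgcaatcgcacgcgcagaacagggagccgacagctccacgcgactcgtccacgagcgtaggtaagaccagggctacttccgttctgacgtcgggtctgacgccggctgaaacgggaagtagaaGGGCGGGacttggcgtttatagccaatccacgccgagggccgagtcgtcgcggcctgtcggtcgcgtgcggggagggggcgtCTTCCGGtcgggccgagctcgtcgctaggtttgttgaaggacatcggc

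B/T BAL and proB ALL both arose from cells with AF4-MLL alone and could be set against each other directly, without normal marrow. The median of B/T BAL minus proB ALL over the subunit genes was 0.55, against 0.17 over all genes tested, and 72 of 81 subunit genes were higher in B/T BAL, as were 8227 of all 14012. At least 2-fold higher in B/T BAL were 14 of 81 subunit genes, a share near the 15.9% of all genes. At least 2-fold lower were 0, against 10.5% of all genes. Cox6b2 led these genes with a log2 difference of 3.61, from 3187 in B/T BAL and 214 in proB ALL. Atp5md followed with 2.03, then Ndufs5 and Ndufb6 with 1.52 each, and Atp5b with 1.41. Quantile normalisation gave medians of 0.22 for the subunits and 0.11 for all genes, so the shift was smaller once the brighter upper end of the B/T BAL array, given above, had been made equal. The ratio of 3' to 5' Actb signal, a measure of RNA and labelling quality that also differed, was 4.72 in B/T BAL, 2.47 in proB ALL and 1.87 in normal marrow. For Gapdh it was 1.14 on the B/T BAL array, 1.28 on the proB ALL array and 0.944 on the normal one. The part of RNA quality in the subunit values was not tested.

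**Figure D4:**
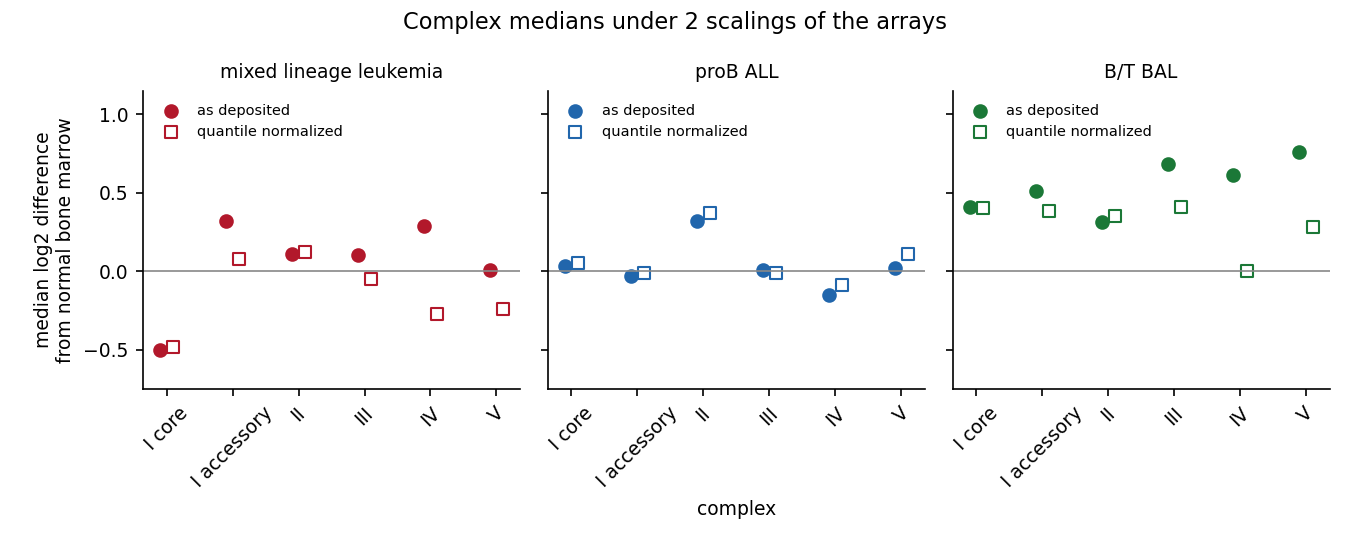
Median log2 difference from normal bone marrow (vertical axis) of each complex, with complex I as core and accessory subunits, in the mixed lineage, proB ALL and B/T BAL samples. Filled circles use the signals as deposited and open squares the signals after quantile normalisation. In B/T BAL complex IV is at 0.61 as deposited and at 0.00 after normalisation, while the mixed lineage value of the complex I core is -0.50 and -0.48.

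To set both fusions against AF4-MLL alone, the mixed lineage array was compared with the 2 other leukemias by limma, on 1 residual degree of freedom. The 2 fusions, the mixed lineage type, its cell mixture and its array coincide in this 1 sample and cannot be told apart. Lower with both fusions therefore means lower on the mixed lineage array. The median over subunit genes was -0.13, against 0.10 over all genes tested, and 51 of 81 subunit genes were lower with both fusions, as were 6517 of all 14012. These medians were not computed after quantile normalisation. At an adjusted p under 0.05 there were 0 of 81 subunit genes and 0% of all genes. At an unadjusted p under 0.05 there were 2 of 81, against 17.8% of all genes. They were Ndufb4 and Cox8b, with unadjusted p of 0.0219 and 0.0399 and adjusted p of 0.213 and 0.259, both above the floor on the mixed lineage array alone. The 6 complex I core genes were all lower with both fusions, with log2 differences between -0.41 for Ndufs8 and -0.87 for Ndufs3, and 0 of 6 passed.

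Other genes of mitochondrial energy supply were described in the same way. These comparisons all use the same normal array, so the lists are not independent of one another. Assembly factors of the complexes, 42 tested, had medians of -0.17 in the mixed lineage, 0.41 in the proB ALL and 0.20 in the B/T BAL sample. The mitochondrial ribosome, 55 tested, makes the mitochondrially encoded subunits, and had medians of -0.33, 0.40 and 0.49, with 16, 44 and 51 of 55 genes above normal marrow. Mitochondrial import, 16 tested, brings nuclear subunits into the organelle and had -0.41, 0.28 and 0.37. Coenzyme Q synthesis, 9 tested, had -0.46, 0.35 and 0.39, the citric acid cycle, 12 tested, had -0.04, 0.44 and 0.46, and regulators of mitochondrial biogenesis, 14 tested, had -0.38, 0.20 and 0.50. After quantile normalisation the mixed lineage, proB ALL and B/T BAL medians were -0.19, 0.37 and 0.19 for assembly factors, -0.21, 0.42 and 0.55 for the ribosome and -0.36, 0.29 and 0.36 for import. They were -0.42, 0.24 and 0.46 for coenzyme Q synthesis, -0.08, 0.45 and 0.37 for the citric acid cycle and -0.20, 0.20 and 0.53 for the regulators. In proB ALL each of these 6 lists had a median above that of the subunits under both scalings. In mixed lineage leukemia each had a median below it as deposited, but after quantile normalisation the citric acid cycle lay above the subunits, at -0.08 against -0.13. The B/T BAL median of the subunits was above those of these lists as deposited, but after quantile normalisation, at 0.36, it was below those of the ribosome, the regulators, coenzyme Q synthesis and the citric acid cycle. No gene of these lists passed limma's adjusted p in either limma comparison.

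Among the assembly factors, Ttc19, which acts on complex III, had 370, 1049 and 895, against 241 in normal marrow, and Uqcc3, also of complex III, had 2632, 5388 and 3561, against 1577 in normal marrow. Cox11, which delivers copper to complex IV, had 1184, 1802 and 1600, against 3492 in normal marrow. Mdh2, malate dehydrogenase of the citric acid cycle, had 41730, 27035 and 41944, against 19594 in normal marrow, above the control in all leukemias. Suclg1 and Idh3b, of succinyl-CoA ligase and isocitrate dehydrogenase, had 7394, 11889 and 7824 against 5503, and 4796, 9297 and 12803 against 5401 in normal marrow. Tomm70a, a receptor of protein import, had 3257, 5660 and 7477, against 2487 in normal marrow, and Mrps9, of the small mitochondrial ribosome, had 4181, 6224 and 5381, against 2195 in normal marrow. Both were above the control in all leukemias. Coq4, of coenzyme Q synthesis, had 1035, 347 and 492, against 994 in normal marrow, and was lower in the AF4-MLL leukemias.

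Regulators of mitochondrial genes differed from the control in various directions. Ppargc1b, a coactivator of nuclear genes for mitochondria, had 52.4 in the mixed lineage, 1365 in the proB ALL and 2453 in the B/T BAL sample, against 274 in normal marrow. It was below the floor in mixed lineage leukemia and well above normal marrow in both AF4-MLL leukemias. Twnk, the helicase that unwinds mitochondrial DNA, had 270, 1514 and 1461, against 1519 in normal marrow, and was lower in mixed lineage leukemia. Yy1, a factor known to bind promoters of subunit genes, had 12922, 11500 and 4202, against 13071 in normal marrow, and was lower in B/T BAL. Cytochrome c links complexes III and IV, and its gene Cycs had 25462, 22631 and 50825, against 28212 in normal marrow, again highest in B/T BAL. Cyc1, the cytochrome c1 of complex III, had 7815, 11782 and 18077, against 14166 in normal marrow, and Cyct, the testis form, was above the floor on the mixed lineage array alone at 297. Of 13 mitochondrially encoded subunits 1 was measured, ND5 of complex I, with 82581, 30786 and 127318, against 16844 in normal marrow. All leukemias were above the control, by 2.29, 0.87 and 2.91 on the log2 scale, with an unadjusted limma p of 0.0351 and an adjusted p of 1.

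**Figure D5:**
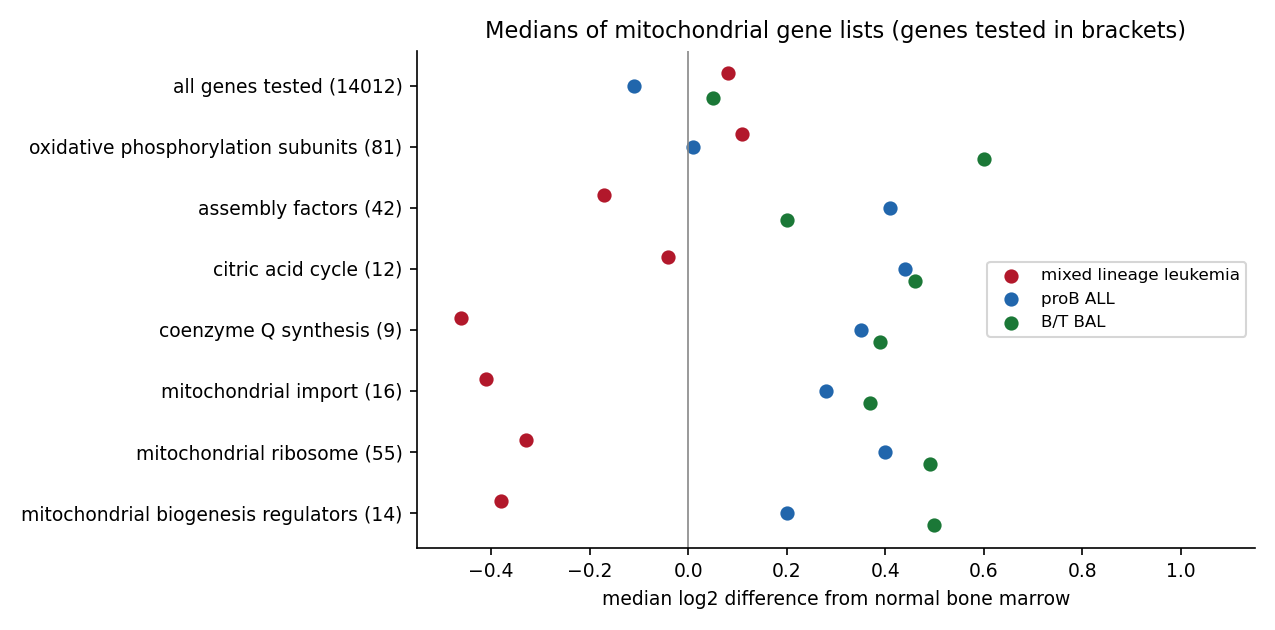
Median log2 difference from normal bone marrow (horizontal axis) of the subunit genes, of other lists of mitochondrial genes and of all genes tested, in mixed lineage leukemia (red), proB ALL (blue) and B/T BAL (green), with the number of genes tested in brackets. Of the lists plotted the subunits have the highest B/T BAL median, 0.60 as deposited, which is 0.36 after quantile normalisation, below the mitochondrial ribosome at 0.55. Their proB ALL median of 0.01 is below those of the other mitochondrial lists plotted.

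Promoters were compared for letters known to be bound by factors that act on subunit genes. RefSeq windows of 250 bases before and 50 after the start, build GRCm38.p6, matched 67 of the 82 genes, with 72 windows. These sets of letters were searched on both strands: GCATGCGC for NRF1, CCGGAAG for ETS factors such as GABP, AAGATGG for YY1, AAGGTCA for ERR factors and GGGCGGG for SP factors. None of these runs contains another of them, although neighbouring matches may overlap. NRF1 letters were found in 9 of the 67 genes, or 13.4%, against 5.33% of 11248 tested genes with a window, and ERR letters in 8, or 11.9%, against 4.18%. ETS letters were found in 17, or 25.4%, against 17.9%, and YY1 letters in 10, or 14.9%, against 8.01%. SP letters were found in 24, or 35.8%, against 47.7%. Over all RefSeq windows of this length the shares were 2.71% for NRF1, 8.86% for ETS, 6.34% for YY1, 4.72% for ERR and 25.6% for SP. At least 1 of NRF1, ETS or YY1 was present in 30 genes, or 44.8%, against 28.0% of tested genes, and 24 genes, or 35.8%, had none of the 5 sets, against 36.7% of tested genes. These matches describe the letters of the windows, and no binding was measured here.

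Probe sets of the same gene showed how far the differences depend on the probe set. They share an array and its RNA, so their range does not measure error between arrays. Of the 82 genes 49 had at least 2 probe sets, and 42 had at least 2 that were above the floor on all 4 arrays. Among these 42 the range of log2 differences over the probe sets of a gene had a median of 0.40 in the mixed lineage, 0.34 in the proB ALL and 0.45 in the B/T BAL sample. The widest were 1.78 for Ndufb2, 1.48 for Atp5a1 and 1.45 for Cox5b. Probe sets disagreed in sign for 17, 18 and 6 of the 42 genes, so directions of single subunits were least certain in mixed lineage leukemia and proB ALL. Probe sets of a subunit gene at least 2-fold apart from normal marrow in opposite directions occurred for 0 genes.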

How the data were processed

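Biotin-labelled total RNA from 4 mouse samples was hybridised to Affymetrix arrays, 1 per group. The deposited values are intensity signals per probe set, and per the submitters' processing notes MAS5 produced them, in a version not given in the sources used here. They show a trimmed mean of 1000 per array (2% removed at each end). Genes were named from the platform annotation, and 10 probe sets naming a member among several genes were left out. Signals were analysed as log2(signal + 51.4), the 25th percentile, with the probe set of highest mean log2 value per gene, and 14012 genes above 189 on at least 1 array were tested. limma 3.58.1 in R 4.3.3 (lmFit, eBayes with trend) gave p-values with Benjamini-Hochberg adjustment over all genes. It was tested on simulated data. Single arrays were compared by differences of at least 2-fold, without a test. Depth does not apply to arrays, and their number limits the precision. Alternatives covered the pseudocount, filter, scaling, probe set choice, array left out and limma settings. Genes named were all of complex II, the complex I core, the F1 part, the tissue forms of complex IV, the 3 highest, 3 lowest and 2 widest-ranging of each complex, genes 2-fold from normal marrow in all 3 leukemias, and up to 3 of each other list. Some genes outside this rule are named for bright ubiquitous forms, a count of 5 or fewer or the largest differences between AF4-MLL leukemias, and were chosen after their values were seen. Members and lists were chosen with earlier results of these data known.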

Additional observations from a re-analysis of the deposited data

How the results depend on the processing

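Counts of at least 2-fold genes were small, and most changed with a setting that moved 1 or a few genes. Genes at least 2-fold higher in mixed lineage leukemia, 8 as reported, were 4 with a filter at the 75th percentile, 5 with quantile normalisation and 4 with dim signals raised to the floor, and those lower, 2 as reported, were 1 with the mean over probe sets. In proB ALL the higher count, 1 as reported, was 2 with a pseudocount at the 5th percentile and 0 with one at the 50th, with scaling to the 75th percentile and with the mean over probe sets. In B/T BAL the 10 higher genes were 4 with quantile normalisation. The median over subunits turned to -0.13 in mixed lineage leukemia with quantile normalisation and to -0.08 in proB ALL with scaling to the 75th percentile. In mixed lineage leukemia quantile normalisation turned complex I to -0.04, complex III to -0.05, complex IV to -0.27 and complex V to -0.24, and the 75th percentile filter turned complex IV to -0.05. In proB ALL complex I became 0.01 with quantile normalisation and 0.12 with the mean over probe sets, complex III -0.01 with quantile normalisation and -0.08 with scaling to the 75th percentile, and complex V -0.07 with that scaling. The causes were not tested. The B/T BAL median stayed positive for the subunits under each alternative run.

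Subunit genes past limma's adjusted p between leukemia and normal marrow were 0 to 1 when each leukemia was left out, the 1 being Cox6b2 without B/T BAL. Over all genes the count was 15 with a pseudocount at the 50th percentile, 23 with robust eBayes, and 0 to 113 when each leukemia was left out (71 without proB ALL, 113 without B/T BAL). For both fusions against AF4-MLL alone, raising dim signals to the floor gave 3 subunit genes and 2521 genes in all. These 3 were Cox8b, Ndufa4l2 and Ndufb4, for which both AF4-MLL arrays were set to 1 value, so the residual spread is 0 by construction. No paired analysis was possible because each group had 1 array and the labels give no replicate numbers. With 1 array per group, differences between single arrays carry no error, and signals below 189 limit the tissue forms of complex IV.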
